A study of Mus musculus with 6 samples.

Results

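Natural killer T (NKT) cells were described in their wild-type state from 3 of the 6 RNA libraries of a study of UTX and JMJD3, by ranking 10755 genes on their mean level over those 3 libraries. The cells were sorted from the thymus of WT mice of a mixed C57BL/6 and 129 background as the fraction that the labels name P1, which bound the CD1d-PBS-57 tetramer and stained negative for CD24, NK1.1 and CD44. Replicates 1 and 2 were female and replicate 3 was male. The other 3 libraries, from UTX/JMJD3 DKO mice, enter here only through the filter that decided which genes are listed. The labels give no age and do not say whether the libraries came from separate mice or pools, so the spread given below is that between libraries and may be technical.

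The receptor of NKT cells varies little, in mouse an alpha chain made of Trav11 and Traj18 paired with a few beta chains, and it binds lipids held by the MHC-like protein CD1d. NKT cells arise in the thymus from double-positive thymocytes, which carry both CD4 and CD8, and are selected by other thymocytes that present CD1d. The transcription factor PLZF, encoded by Zbtb16, is known for directing their innate-like program. Cells that have lost CD24 but do not yet carry CD44 or NK1.1 are the early steps after selection, and later cells are grouped by function as NKT1 (interferon gamma), NKT2 (interleukin 4) and NKT17 (interleukin 17). NK1.1 is not detected by the usual antibody in 129 strains, so on this mixed background the NK1.1 gate depends on which Klrb1c allele a mouse carried.

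Levels are RPKM, in which reads are divided by the length of the gene and by the mapped reads of the library, as the authors deposited them. Every row of the table exceeded RPKM 3 in at least 2 of the 6 libraries, and 1017 of 10772 rows did so in fewer than 2 WT libraries, that is, only with the help of the other genotype. Genes that stayed low throughout were therefore not seen, and the genes near 0 described here are those whose row passed the filter through the other genotype. Some genes that are usually abundant in T cells, such as Myl6, also had no row, so the lack of a row is not read as a low level. As implied by the RPKM steps, replicate 1 held 32.4 M mapped reads, replicate 2 held 7.24 M and replicate 3 held 5.04 M. At the median gene length a single read was worth RPKM 0.0163, 0.0729 and 0.105 in turn. The limit that a listed 0 allows, taken as 3 reads, was then RPKM 0.0489, 0.219 and 0.314. Reads without molecular identifiers are not independent molecules, so these limits cover counting error only. In RNA from a sorted pool, fewer cells of a type and less RNA per cell cannot be told apart.

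Replicate 1 stood apart from the other WT libraries. The 11 listed genes of double-positive thymocytes were higher in replicate 1 than in both others in 11 of 11 cases, with summed levels of RPKM 571, 89.2 and 69.3 in replicates 1 to 3, while over all genes 40.03% were highest there. Cd1d1, among the 11, was nearly level between replicates 1 and 2, at 30.1 and 29.3. The gene lists here and below were chosen with earlier results of these data known, so such counts describe the listed genes only. Replicate 1 was also the deepest library, and short genes were lower in it. Levels are therefore given library by library, in the order of replicates 1, 2 and 3.

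At the top of the ranking stood the genes of the translation machinery, and the promoters of some of them hold a feature for which this group is known. Messages of ribosomal proteins and elongation factors start with a run of pyrimidines, the 5′ terminal oligopyrimidine tract, through which their translation is coordinated. The sequences below are those of the 4 highest ribosomal protein genes with a run of C or T at or within 5 bases of the annotated start. They were chosen after their levels were seen. Each sequence covers 40 bases before to 15 bases after the annotated start, in RefSeq's GRCm38.p6 build, with the run of C or T in capitals. The run crosses the annotated start in Rplp2 and Rps9, but it ends before the start in Rpl4 and begins after it in Rps26. Rpl4 lies at chr9:64173347-64173401 on the plus strand, Rps26 at chr10:128626492-128626546 on the minus strand, Rplp2 at chr7:141447611-141447665 on the plus strand and Rps9 at chr7:3704001-3704055 on the plus strand.
Rpl4: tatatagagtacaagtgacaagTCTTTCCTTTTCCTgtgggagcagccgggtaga
Rps26: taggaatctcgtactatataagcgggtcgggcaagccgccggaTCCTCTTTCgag
Rplp2: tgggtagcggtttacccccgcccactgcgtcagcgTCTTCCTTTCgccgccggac
Rps9: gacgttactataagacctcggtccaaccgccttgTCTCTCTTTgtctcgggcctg

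A run of at least 7 bases of only C or T, reaching to within 5 bases of the annotated start on the strand that matches the RNA (the other strand was not searched), was counted over all 6661 listed genes with a promoter in the RefSeq table. It was present at 40.7% of genes at a mean of RPKM 1000 or more (11 of 27), at 18.02% from 300 to under 1000, at 16.5% from 100 to under 300 and at 11.04% to 13.9% in each lower class. The high share went with the ribosomal protein genes, of which 42.1% (24 of 57) held a run. Among the other genes at RPKM 300 or more the share was 14.1% (13 of 92), near the 14.0% of all 27025 promoters in that table. The letters TATAAA, searched on the same strand from 40 to 15 bases before the start, were found in 2.22% of all promoters and in 1.01% of the 6661 listed genes. By class they were in 0 of the 27 at RPKM 1000 or more, in 4.505% (5 of 111) at 300 to under 1000 and in 2.44% (9 of 369) at 100 to under 300. Below that the share was 0.575% to 1.35% down to RPKM 1, and 1 of the 27 genes under RPKM 1 held them. Of the genes at RPKM 300 or more that encode no ribosomal protein, 5.43% (5 of 92) held them. These counts describe letters in a window of a newer build than the reads were mapped to, and no factor's binding was measured.

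Levels in the WT libraries ran from 0 to RPKM 5687. Of the 10755 genes, 1248 (11.6%) had a mean of RPKM 100 or more and are called high here, 5258 (48.9%) lay from 10 to under 100 (moderate), 4200 (39.1%) from 1 to under 10 (low) and 49 under 1 (near 0). The number near 0 was 102 without replicate 1, 122 without replicate 2, 88 without replicate 3 and 140 by the median over libraries. The high genes held 73.4% of the summed RPKM, the moderate genes 23.5% and the low genes 3.05%. The 100 highest genes alone held 27.2% ± 0.756 (SD, n = 3). At RPKM 10 or more in every library stood 5472 genes, and 1039 were at 100 or more in every library.

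**Figure D1:**
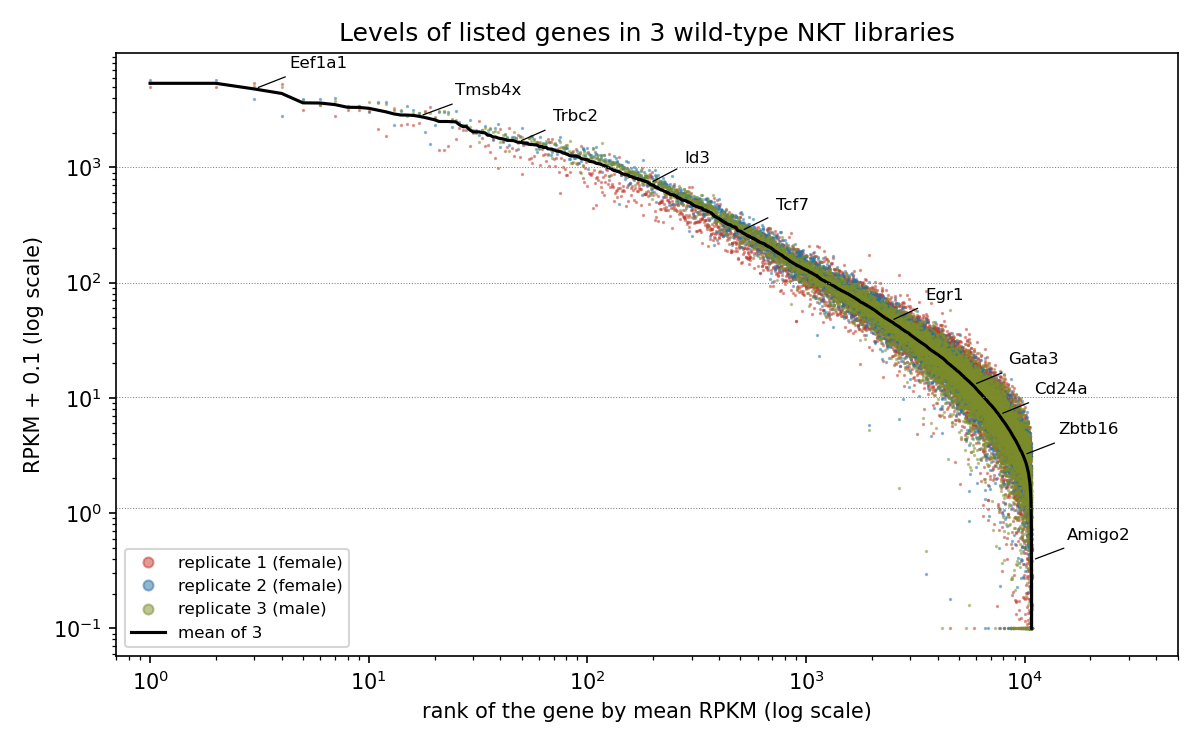
Level of each listed gene as RPKM + 0.1 (vertical, log scale) against its rank by mean RPKM (horizontal, log scale), with points for each of the 3 WT libraries and a line for the mean. Some genes of the text are marked, and dotted lines stand at RPKM 1, 10, 100 and 1000. The points of the 3 libraries lie close to the line at the top and spread below RPKM 10, and the points of replicate 1 lie below the line for many genes of the ranks from 100 to 1000.

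The highest rows were not all separate genes. The first place was shared by Tpt1-ps3 and an unnamed gene (ENSMUSG00000057356) with the same length and the same values, 5004, 5687 and 5403 in replicates 1 to 3. Tpt1 itself, which encodes a growth-related protein, stood at 1415, 1815 and 1806. In all, 212 rows in 106 sets were identical to another row in length and in every library. Among the 30 highest, 13 matched protein-coding genes in GENCODE M21, 8 pseudogenes, 2 other RNAs, and 7 had no match. Of the 1248 high genes, 631 (50.6%) were protein coding and 375 (30.05%) pseudogenes, against 78.7% and 12.5% of the moderate genes. Copies of a gene can share its reads, so the levels of pseudogenes and of the genes they copy are uncertain, the ribosomal proteins and Eef1a1 included.

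Eef1a1, which delivers aminoacyl-tRNA to the ribosome, was the highest protein-coding gene at RPKM 5386, 3909 and 5077 in replicates 1 to 3. Rack1, a scaffold protein of the small ribosomal subunit, followed at 3153, 3919.5 and 3820.0. Eef1a1 was well above Rack1 in replicates 1 and 3, and the genes were level in replicate 2. Of the 30 highest protein-coding genes 17 encode ribosomal proteins by name, and of the 100 highest 47. The 77 protein-coding genes with such names had a median of RPKM 685, against 14.6 for all genes, and 75 of them were high. Together they held 9.55% of the summed RPKM.

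Within that group Rplp1, a protein of the ribosomal stalk, reached 2781, 3967 and 3771 and Rplp0, another stalk protein, 3151, 2326 and 3263 in replicates 1 to 3. Replicate 1 was below both other libraries for 61 of the 77, against 38.1% of all genes. Rps29, of the small subunit, was at 581, 1277 and 1268, so replicate 1 lay well below the other pair. The 29 factors of translation initiation and elongation were spread more widely, from RPKM 13.6 to 4791 with a median of 149, and 18 were high. Eef2, which moves the ribosome along, stood at 516, 235 and 341.

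Other genes among the 30 highest protein-coding ones encode proteins of several kinds. B2m, the light chain of MHC class I and of CD1d, was at RPKM 2136, 3686 and 3592. Tmsb4x, which binds free actin, was at 2421, 2956 and 2945. Both were lowest in replicate 1. Ubb, which encodes ubiquitin, was at 2522, 1897 and 1674 and highest there. Ly6e, a small lipid-anchored surface protein, was at 2709, 2315 and 2742 and Cd52, another of that kind, at 1528, 3049 and 2928. Ptprcap, the partner of CD45, stood at 2166, 1494 and 1669.7 and was highest in replicate 1. Of 22 actin genes with a row 19 were high, among them Cfl1 (cofilin) at 1361, 962 and 1141 and Coro1a, a T cell coronin, at 807, 644 and 678. Actb, often used as a reference, was at 119, 255 and 187, well below Actg1 at 976, 1007 and 1064.

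**Figure D2:**
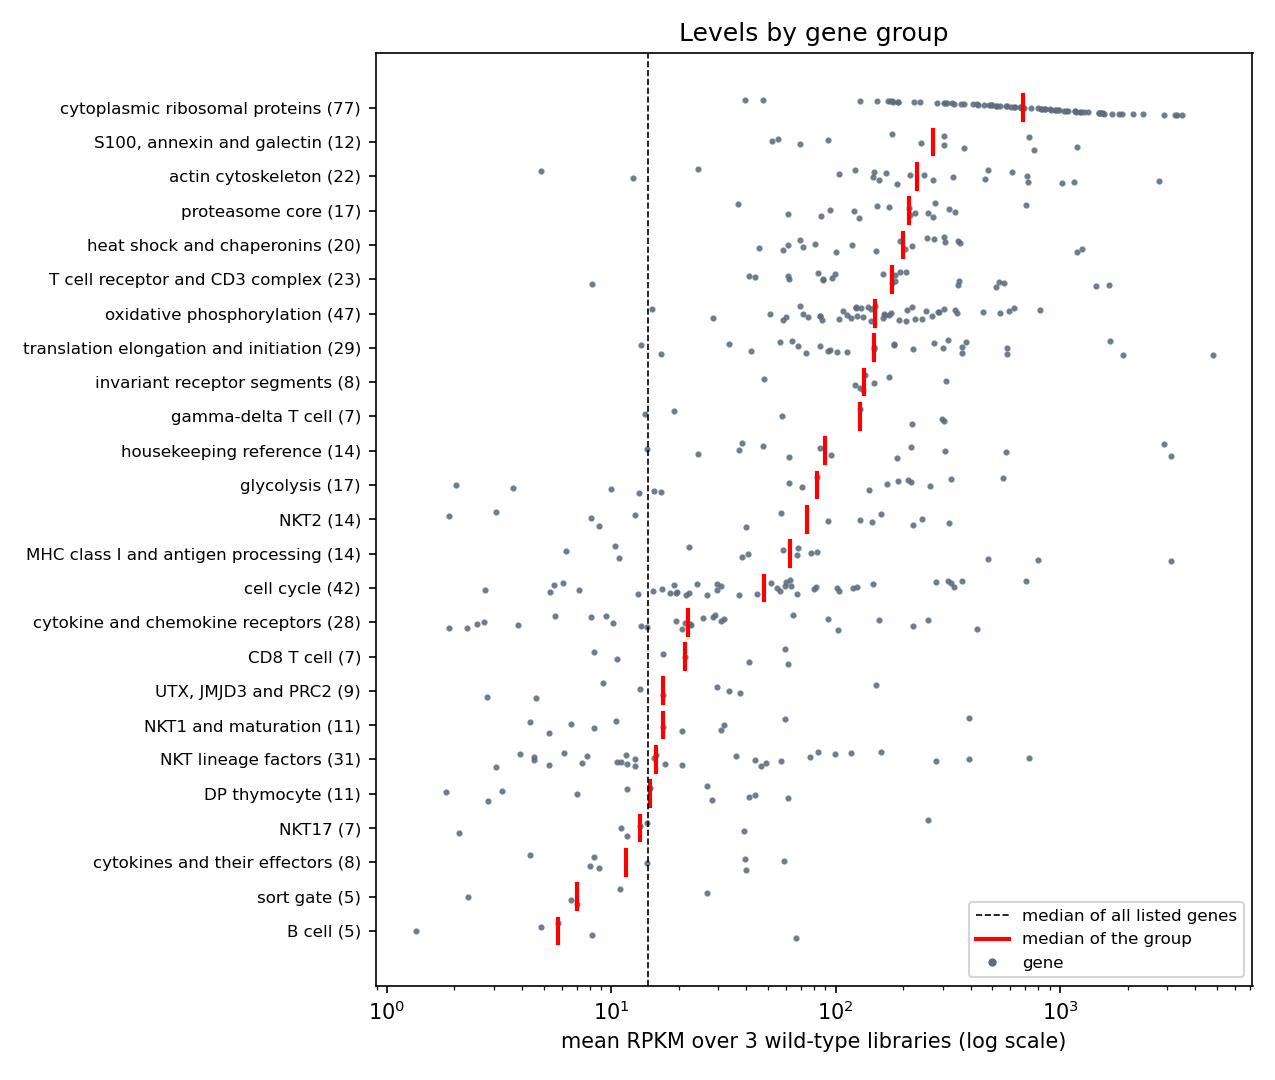
Mean RPKM over the 3 WT libraries (horizontal, log scale) of each member of the gene groups with at least 5 rows, the number of rows in brackets, with a red line at each group's median and a dashed line at the median of all genes, RPKM 14.6. Ribosomal protein genes stand highest with a median of 685, and the T cell receptor group lies at 178, above the NKT lineage factors at 15.8 and the sort gate genes at 7.02.

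The T cell receptor and its signalling partners were high. All 23 listed genes had a row, 13 were high, and 20 of 23 lay within 2-fold over the libraries. Within 2-fold refers to the ratio of RPKM + 1 from the highest to the lowest library, used throughout. The share was 70.5% of all genes, but 89.7% of high genes and 77.6% of moderate genes, so the count is near the share at these levels. The beta chain constant genes led, with Trbc2 at 1908, 1441 and 1612 and Trbc1 at 1646, 1276 and 1409. The alpha constant gene Trac stood at 475, 598 and 483. Trbc1 and Trbc2 are near copies and can share reads.

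Of the CD3 chains, Cd3g was at 544, 569 and 578 and Cd3d at 326, 383 and 349.9. Cd3e, although part of the same complex, was at 6.003, 9.81 and 8.85, from 279, 102 and 64 reads, far under its partners in all 3 libraries. These values come from the same deposited processing, whose annotation and counting method are not given. Their agreement therefore does not show that the message itself was that low. Lck, the kinase that starts receptor signalling, was at 592, 488 and 519, and Lat, an adaptor of that signal, at 368, 384 and 309.9. Zap70 stood at 204, 197 and 149.9. The groups of values of Lck and Trac overlapped, as did those of Lat and Cd3d, so their order was not fixed by these libraries.

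The segments of the invariant receptor were present in each library. Traj18 was at 115, 157 and 126 and Trav11 at 94.2, 156 and 134, close together. Its copy Trav11d was at 95.03, 153 and 116, and reads cannot be told apart between such copies. Among the beta segments typical of NKT cells, Trbv13-2 was at 382, 213 and 337, Trbv29 at 180.4, 129 and 211 and Trbv1 at 143, 104 and 158. These segments were lowest in replicate 2, and Trav11 and Traj18 were highest there. Gamma chain genes were also read, Tcrg-C2 at 314, 266 and 334 and Tcrg-C4 at 309, 296 and 284, while the defining gene of gamma-delta T cells, Trdc, had no row.

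The genes behind the sort were low or moderate. Cd44 was at RPKM 3.73, 2.33 and 0.829, Klrb1c (NK1.1) at 10.8, 3.51 and 5.59 and Cd24a at 11.2, 5.35 and 4.500. All 3 were highest in replicate 1. Cd1d1, which thymocytes use to present lipid, stood at 30.1, 29.3 and 20.96, and Cd1d2, its near copy, at 11.8, 9.45 and 11.5. The gate acts on surface protein, so a low message and a negative stain are separate measurements.

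Of 34 transcription and lineage factors of NKT cells 31 had a row, of which 5 were high, 18 moderate and 8 low, and 23 lay within 2-fold. The share within 2-fold was 89.7% of all high, 77.6% of all moderate and 56.0% of all low genes, so the 23 are near it. Id3, an inhibitor of E proteins that is induced by receptor signalling, was the highest of the factors in each library at 708, 728 and 745. Its spread was RPKM 18.5 (SD, n = 3) around its mean. Id2, its relative and a gene of the NKT1 program, was at 232, 369 and 574. Tcf7, which encodes TCF-1, was at 401, 205 and 230.2. Tcf7 was above Id2 in replicate 1 and below it in both others, so the second place depended on the library.

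Slamf6, a receptor whose contacts between thymocytes help to select NKT cells, was at 174, 148 and 155, and Sh2d1a, which encodes its adaptor SAP, at 82.5, 91.7 and 74.98. Slamf1, another receptor of that family, was at 7.47, 10.4 and 0.592, so replicate 3 stood far below the others. Satb1, a chromatin organiser of thymocytes, stood at 149, 104 and 97.2. Ikzf1 was at 91.9, 108 and 96.8 and Ets1 at 101, 55.1 and 73.6. The values of these last 3 overlapped.

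Factors downstream of the receptor lay in the middle. Egr1, an early response gene, was at 54.3, 40.4 and 44.3 and Egr2, which is needed for NKT cells and drives Zbtb16, at 13.9, 22.1 and 25.9. Egr1 was above Egr2 in each library. Myc, needed for the expansion after selection, was at 53.8, 47.05 and 45.5, Lef1 at 76.4, 47.5 and 46.8 and Tox at 52.5, 36.2 and 42.8. Nfkb1 stood at 39.5, 34.9 and 33.7 and Relb at 11.7, 4.04 and 7.65. Egr3, Tcf4 and Hivep3 had no row.

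The E proteins and their partners in thymocytes were low to moderate. Tcf3, which encodes E2A, was at 16.1, 16.03 and 14.4 and Tcf12, which encodes HEB, at 8.12, 2.88 and 2.58. Myb was at 21.8, 16.7 and 13.4, Runx1 at 8.25, 6.63 and 7.24 and Runx3 at 14.2, 6.605 and 11.01. Bcl11b, a guardian of T cell identity, was at 8.895, 10.2 and 13.9. Tcf3 was above Tcf12 in each library, while the ranges of Tcf3 and Myb overlapped.

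Zbtb16 itself had the lowest mean of the 31 listed factors, at RPKM 2.67, 3.06 and 3.504, from 440, 113 and 90 reads over a gene length of 5100 bases. The 3 libraries differed little for Zbtb16, with an SD of 0.42 around a mean of 3.08. As for Cd3e, they share the deposited processing, so this agreement does not show that the message itself was that low. Gata3, which favours the interleukin 4 program, was at 15.6, 6.78 and 16.04, and Zbtb7b, which encodes ThPOK, at 8.91, 12.6 and 16.8. Tbx21, which encodes T-bet of the NKT1 program, was at 2.17, 6.94 and 6.698 and lowest in replicate 1.

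**Figure D3:**
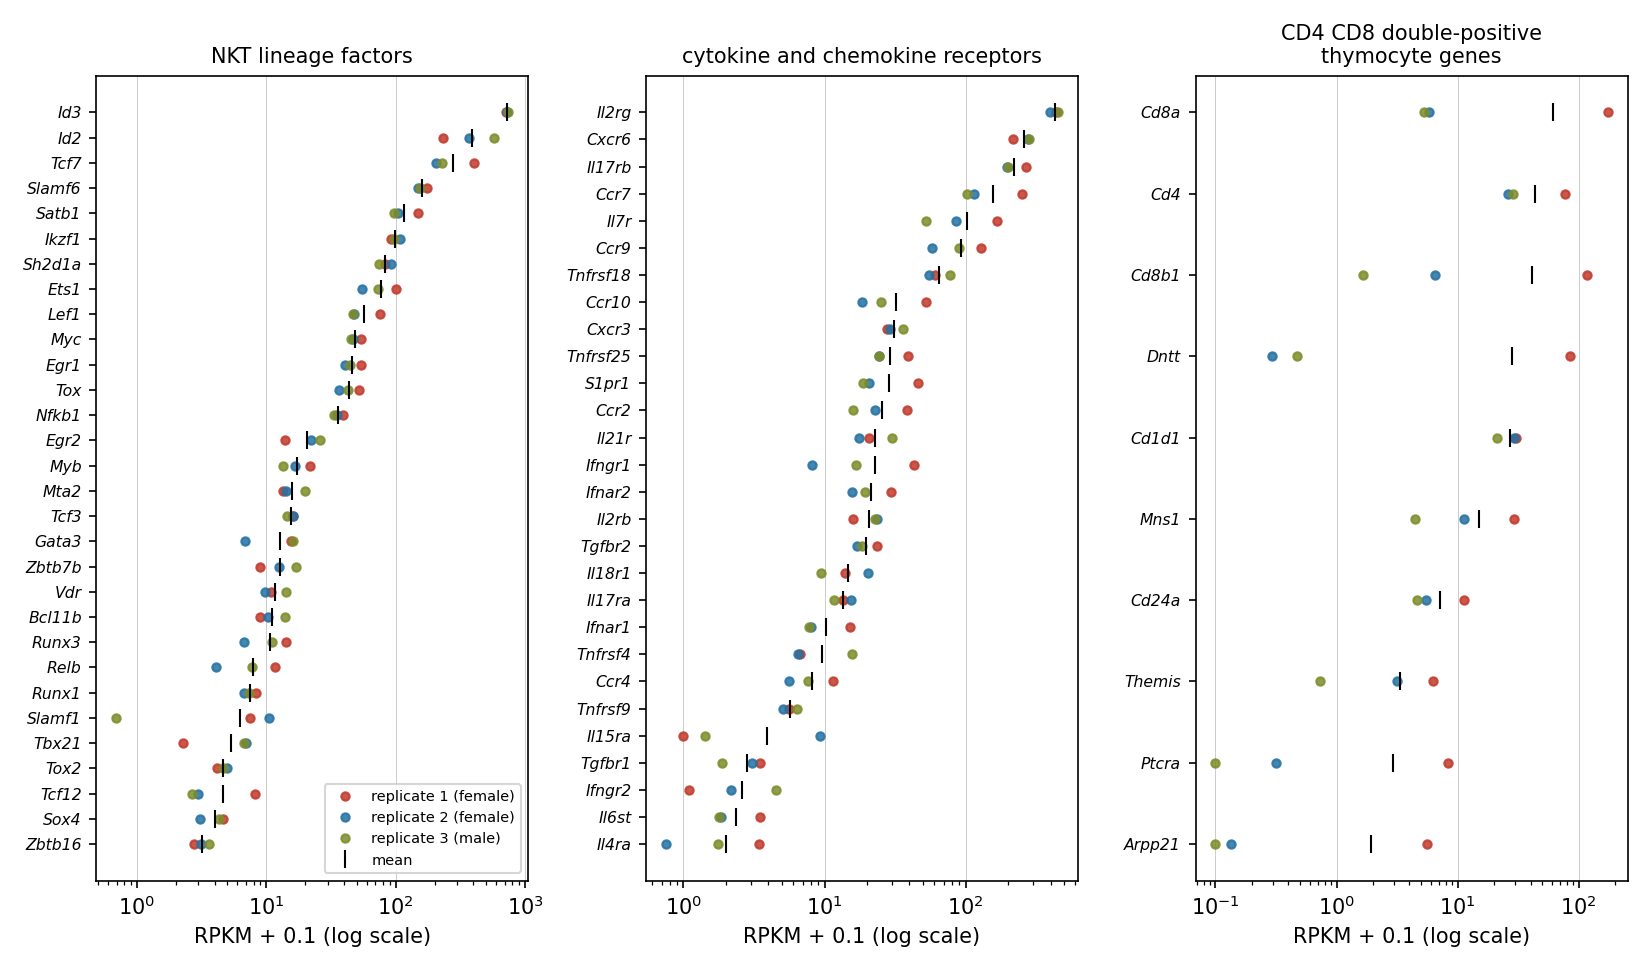
RPKM + 0.1 (horizontal, log scale) in each WT library of listed NKT lineage factors, cytokine and chemokine receptors and double-positive thymocyte genes, with a point per library and a bar at the mean. Id3 and Il2rg lead their panels with libraries close together, and in the right-hand panel replicate 1 is the rightmost point for each of the genes shown, with Dntt at 84.2 against 0.195 and 0.373.

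Of the genes listed for the 3 functional subsets, those of NKT2 had a row for 14 of 15 members, with a median of RPKM 74.6. Icos, a costimulatory receptor, was at 406, 312 and 238, and Il17rb, the receptor for interleukin 25, at 268, 197 and 199. Pdcd1 (PD-1) was at 153, 126 and 156 and Plac8 at 163, 357 and 205. The cytokine messages were lower, Il4 at 27.6, 51.6 and 40.9 and Il13 at 2.000, 15.5 and 8.897, both lowest in replicate 1.

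The NKT1 list had a row for 11 of 21 genes, with a median of 16.98. After Id2 its highest members were Cd7 at 42.5, 82.7 and 54.00, Klra1, an inhibitory Ly49 receptor, at 4.76, 48.4 and 41.8 and the chemokine receptor Cxcr3 at 27.8, 28.8 and 36.1. Klra1 in replicate 1 was far below the other libraries. Il2rb, part of the interleukin 15 receptor that NKT1 cells need, was at 15.8, 23.6 and 22.9. Ifng, Klrd1, Klrk1, Gzmb, Xcl1 and Fasl had no row.

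The NKT17 list had a row for 7 of 16 genes and a median of 13.4. Cxcr6, a chemokine receptor carried by NKT cells of several kinds, led it at 215, 278 and 282. Blk was at 67.3, 9.77 and 40.2 and Tmem176b at 18.01, 8.303 and 13.8. Il17a, Il17f, Il22, Il23r, Ccr6 and Il1r1 had no row. The lists hold genes that other T cells also express, and they differ in how many members had a row, so their medians describe only the listed members.

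Cytokine and chemokine receptors were measured by 28 of 32 listed genes, with a median of RPKM 21.9. Il2rg, the common gamma chain, led in each library at 437, 397 and 453. Ccr7, a receptor of cells that move to the medulla, was at 250.3, 115 and 103, Il7r at 168, 85.6 and 52.6 and Ccr9 at 129, 57.6 and 90.1. All 3 were highest in replicate 1, as were 16 of the 28 genes, against 40.03% of all genes, and the part of the double-positive thymocyte genes in this was not tested. S1pr1, through which mature cells leave the thymus, was at 46.00, 20.6 and 18.7. Il4ra, the receptor for interleukin 4, was the lowest at 3.34, 0.648 and 1.67.

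Of 19 listed cytokines and effectors 8 had a row, none of them high. Ltb was at 50.4, 43.4 and 82.95, Lta at 9.93, 19.99 and 13.4 and Tnf at 5.84, 7.08 and 11.1, all members of the tumour necrosis factor family. Il16 was at 53.4, 28.5 and 36.9 and Ccl5 at 15.2, 4.98 and 4.897. Replicate 1 was highest for the last 2.

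Proliferation genes were well read in these early cells. Of 45 listed cell cycle genes 42 had a row, 11 high and 26 moderate, with a median of RPKM 48.1. Pcna, the sliding clamp of DNA replication, was at 298, 359 and 352 and Cdk4, the kinase of the G1 phase, at 358, 312 and 316. Mcm6, part of the replicative helicase, was at 208, 104 and 62.5 and Stmn1 at 329, 302 and 212. Mki67, the Ki-67 marker, was at 46.4, 10.8 and 7.42 and Top2a, which untangles DNA, at 78.7, 18.9 and 13.6.

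Replicate 1 was above both others for 38 of these 42 genes, against 40.03% of all genes. Once replicate 1 was centred on the others by gene length, it was still above both for 36, against 4072 of all 10755 genes. The summed level was 5005, 3640 and 3298 in replicates 1 to 3. The double-positive thymocyte genes moved with them, at 571, 89.2 and 69.3, and their part in this was not tested. Pcna was one of the 4 that were lowest in replicate 1.

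Genes of energy metabolism were mostly high or moderate. All 47 listed nuclear genes of oxidative phosphorylation had a row and 36 were high, with a median of RPKM 150 and 41 of 47 within 2-fold. Of all high genes 89.7% and of all moderate genes 77.6% lay within 2-fold, so the 41 are near the share at these levels. Atp5b, a subunit of ATP synthase, was at 808, 860.3 and 786 and Cox4i1, of cytochrome oxidase, at 599, 599 and 425. Replicate 1 was below both others for 30 of the 47, against 38.1% of all genes, with a median difference of -0.31 in log2(RPKM + 1). After centring by gene length replicate 1 was below both for 24 of 47, against 4214 of all 10755 genes. The median difference was then -0.09. None of the 15 genes of the mitochondrial genome had a row. Among 17 glycolysis genes, Ldha was at 623, 546 and 509, Pkm at 435, 285 and 260.4 and Gapdh, a common reference, at 80.2, 48.5 and 57.7.

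The genes that the study deleted in the other genotype were low in WT cells. Kdm6a, which encodes UTX, was at RPKM 7.06, 4.86 and 1.94 and Kdm6b, which encodes JMJD3, at 1.62, 3.12 and 3.65. Their ranges overlapped, and replicate 1 was highest for the first and lowest for the second. Both enzymes take off the repressive H3K27 methyl marks that the PRC2 complex adds. Its catalytic subunit Ezh2 was at 61.04, 25.9 and 25.6, Eed at 18.9, 40.9 and 40.2 and Suz12 at 22.6, 9.89 and 7.67, while the alternative subunit Ezh1 was at 19.7, 14.2 and 17.3. Rbbp7, a histone-binding protein of PRC2 and other complexes, was the highest of the group at 153, 145 and 157.

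Agreement between the libraries fell with the level down to RPKM 1. At RPKM 1000 or more, 91.1% of 123 genes lay within 2-fold over the 3 libraries (95% Wilson interval 84.7% to 94.9%), and at 300 to under 1000 the share was 90.7% of 353. It was 89.1% of 772 at 100 to under 300 and 85.5% of 2119 at 30 to under 100, so it was nearly level down to RPKM 30. Below that it dropped to 72.3% at 10 to under 30, 60.0% at 3 to under 10 and 39.4% at 1 to under 3. Among the 49 genes under RPKM 1 it was 61.2%, where adding 1 to each value leaves little room for a 2-fold difference, and their median SD was 0.45. Genes differ together within a library, so such intervals cover counting only. Adding 1 to each value brings low levels closer together, and with 0.1 added in its place the share from RPKM 1 to under 10 was 44.3% in place of 56.0%. The row filter also bears on the lowest classes. Of the 869 genes with a mean under RPKM 3, 769 had passed it in fewer than 2 WT libraries. With only rows above RPKM 3 in at least 2 WT libraries, the share from RPKM 1 to under 10 was 61.9%. How far the drop below RPKM 3 is one of level alone was not tested.

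The median SD of log2(RPKM + 1) was 0.26 at RPKM 1000 or more, beside 0.017 from read counting alone, and 0.62 at 1 to under 3, beside 0.14. Separate libraries vary by more than counting, so this comparison sizes the counting error and says nothing of agreement. Between them it was 0.29 at 30 to under 100 and 0.37 at 10 to under 30. With reads thinned to the depth of replicate 3 in all libraries, 76.1% of moderate genes lay within 2-fold in place of 77.6%.

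**Figure D4:**
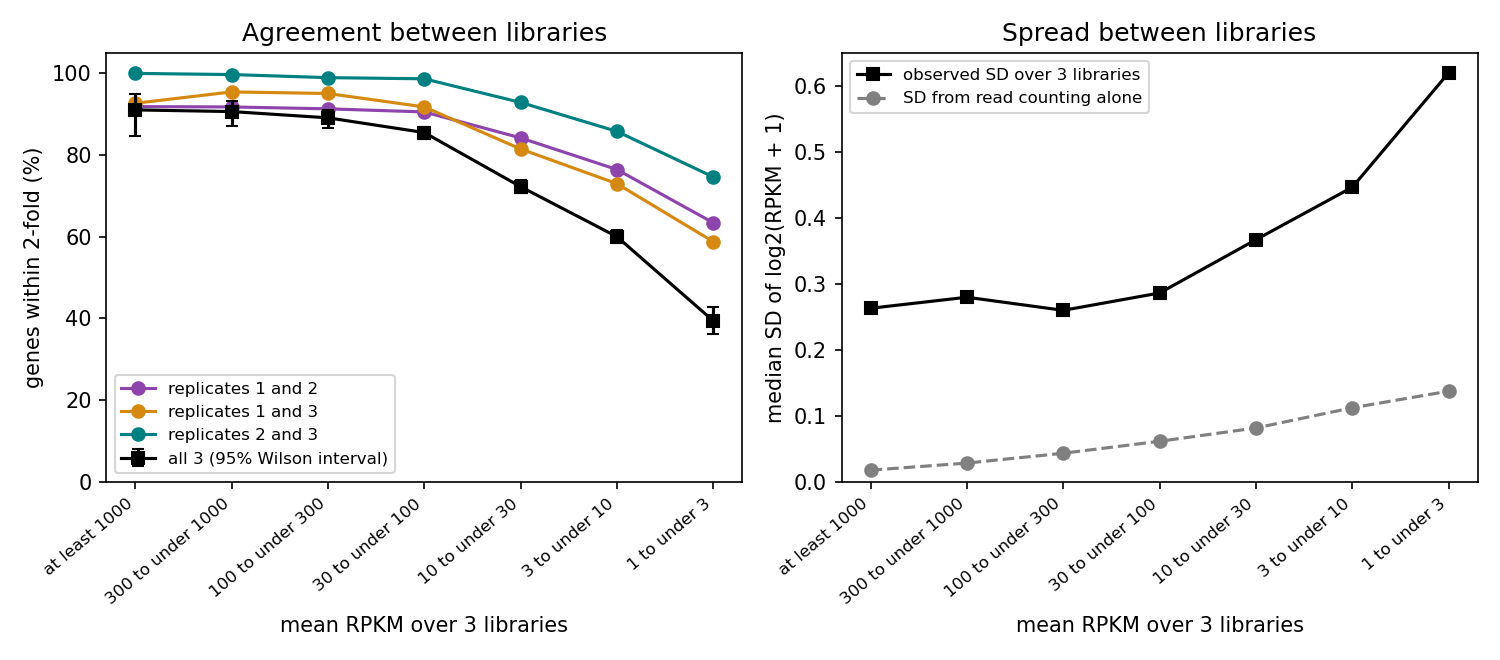
Left, the share of genes within 2-fold (percent) between each pair of WT libraries and over all 3 with its 95% Wilson interval, by class of mean RPKM. Right, the median SD of log2(RPKM + 1) over the 3 libraries beside the median SD that read counting alone gives. The pair of replicates 2 and 3 lies above both other pairs in each class, and the observed SD climbs from 0.26 at the top to 0.62 at RPKM 1 to under 3.

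The spread was wider in the pairs that held replicate 1. Replicates 2 and 3 were within 2-fold for 91.1% of all genes, replicates 1 and 2 for 82.3% and replicates 1 and 3 for 80.7%. Across genes, which are not independent replicates, Spearman's rho was 0.940 between replicates 2 and 3, 0.903 between 1 and 2 and 0.894 between 1 and 3. Among genes at RPKM 1000 or more the same pairs gave 0.92, 0.65 and 0.70. The 100 highest genes of the 3 libraries shared 80 genes, and those of replicates 2 and 3 shared 92.

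The class that a pair of libraries gave to a gene held in the third for most high, moderate and low genes. Of genes that were high by the mean of replicates 2 and 3, 84.6% were also high in replicate 1, and 92.8% of genes high by replicates 1 and 2 were high in replicate 3. For moderate genes the share was 85.5% to 86.1% whichever library was left as the third, and for low genes 75.0% to 85.9%. Genes near 0 in a pair of libraries were under RPKM 1 in the third in 24.6% to 30.7% of cases. This share is set in part by the filter, which left out genes near 0 throughout, so it does not show how often such a level is shared. Under RPKM 1 in each library stood 19 listed genes.

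Among high genes the steadiest were spread over several functions. Pagr1a, part of a histone methyltransferase complex, was at 100.9, 100.6 and 100.4, and Clta, a clathrin light chain, at 243.7, 242.1 and 243.1. Psmb5, a catalytic subunit of the proteasome, was at 209.6, 213.5 and 212.7, Cct3, of the chaperonin that folds actin and tubulin, at 310.1, 302.2 and 304.9, and Arpc5, of the complex that branches actin, at 327.4, 335.4 and 337.01. All 17 core genes of the proteasome, of which 13 were high, lay within 2-fold. Their median ratio was 1.19, against 1.63 for all genes and 1.41 for high genes.

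The least steady genes at a mean of RPKM 10 or more were mostly genes of replicate 1. Dntt, the terminal transferase of cells that rearrange their receptor, was at 84.2, 0.195 and 0.373, from 5797, 3 and 4 reads. Cd8a was at 174, 5.71 and 5.18, and Cd8b1, the other chain of the CD8 coreceptor, at 116, 6.44 and 1.54. Ly6d, a lipid-anchored protein of the Ly6 family, was at 39.1, 4.27 and 0. In all 4 the deepest library held most of the signal, and the mean describes none of the 3 libraries.

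Of 6506 genes at a mean of RPKM 10 or more, 16 were more than 4-fold above both other libraries in replicate 1, 0 in replicate 2 and 2 in replicate 3. The 16 included Mki67 and Top2a beside Dntt, Cd8a and Cd8b1. More than 4-fold below both others lay 12 genes in replicate 1, 3 in replicate 2 and 10 in replicate 3. Among the 1248 high genes there were 0 above and 1 below, in replicate 2.

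In the list of double-positive thymocytes 11 of 13 genes had a row and Rag1 and Rag2 had none. Ptcra, the surrogate alpha chain, was at 8.25, 0.215 and 0, and Arpp21 at 5.46, 0.0348 and 0. Cd4, which NKT cells may also carry, was at 76.4, 26.1 and 28.4, so it was also present outside replicate 1. With replicate 1 left out, the mean of Dntt is RPKM 0.28, of Cd8a 5.45 and of Cd8b1 3.99. The part of such cells in the other levels of replicate 1 was not tested.

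The lists of other T cells had rows for most members. Of 9 gamma-delta T cell genes 7 had a row and 4 were high, with a median of RPKM 129. The gamma chain genes given above led them, and Cd163l1, a scavenger receptor of gamma-delta T cells, was at 18.5, 14.997 and 23.9. Of 9 CD8 T cell genes 7 had a row, 6 of them moderate by the mean of 3 libraries, with a median of 21.4. Library by library, 5, 3 and 4 of the 7 were at RPKM 10 or more in replicates 1 to 3. Their medians were 15.2, 6.605 and 11.01. Itgae, the integrin CD103, was at 6.78, 23.3 and 34.1, lowest in replicate 1, while Cd8a and Cd8b1 were highest there. The part of such cells in other levels was not tested.

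The lists of other cell types had fewer rows, which alone does not give a level. Of 13 B cell genes 5 had a row, with Ighm, the heavy chain of IgM, at 75.5, 65.4 and 58.7 in replicates 1 to 3, and Cd79a, Cd79b and Ms4a1 had none. Of 18 myeloid and dendritic genes 2 had a row, and of 17 genes of thymic epithelium and stroma 2, with summed levels of 11.7, 17.9 and 16.02 in replicates 1 to 3 for the first and 40.5, 16.6 and 18.00 for the second. Of 9 erythroid genes only Hba-a2 had a row, at a mean of 0.39. Of 13 NK cell genes 3 had a row, the highest being Fcer1g at 2.897, 12.04 and 11.8.

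**Figure D5:**
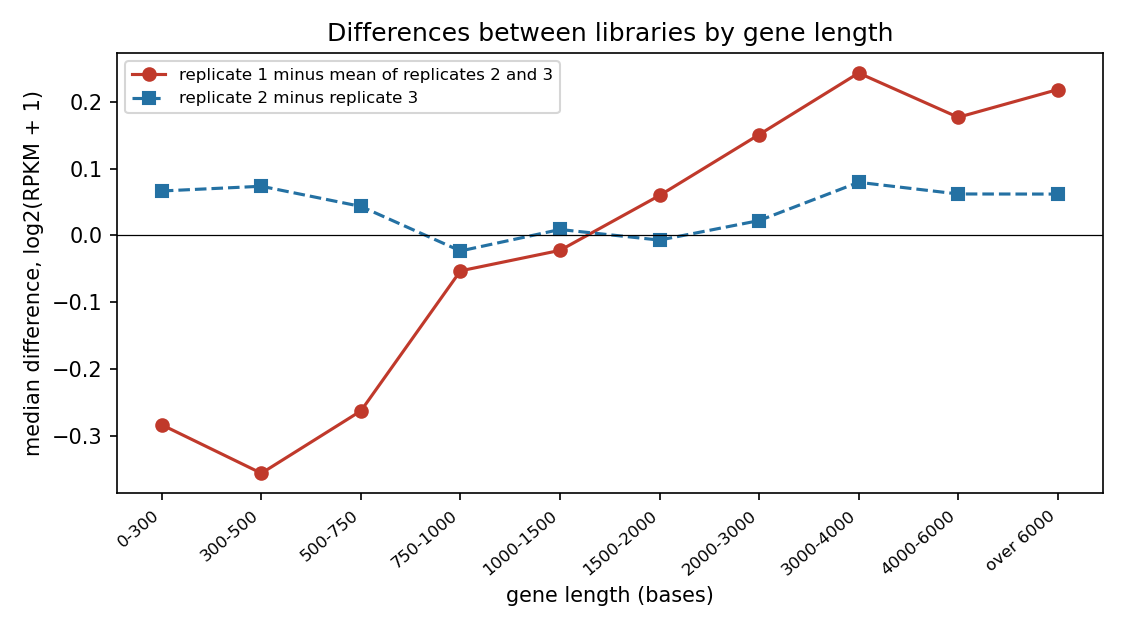
Median difference in log2(RPKM + 1) (vertical) in 10 classes of gene length (horizontal, bases), for replicate 1 minus the mean of replicates 2 and 3 and for replicate 2 minus replicate 3. The line of replicate 1 climbs from -0.36 at 300 to 500 bases to 0.24 at 3000 to 4000, and the other line stays between -0.02 and 0.08.

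The deviation of replicate 1 moved with gene length. Its median difference from the other pair was -0.28 in log2(RPKM + 1) for genes of up to 300 bases, -0.36 from 300 to 500 and 0.24 from 3000 to 4000, and the rank correlation with length over all 10755 genes was 0.23, against 0.005 for replicate 2 minus replicate 3. Short genes were also higher in level, with a rank correlation of length with mean RPKM of -0.40. The ribosomal protein genes have a median length of 682 bases, under the 1897 of all genes, and their median difference in replicate 1 was -0.50, or -0.29 once replicate 1 was centred on the others by length. For the cell cycle genes the same values were 0.64 and 0.58, and for the double-positive thymocyte genes 2.67 and 2.47.

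The sex of the mice showed in the single Y-linked gene with a row. Eif2s3y, a translation factor subunit encoded on the Y chromosome, was at 0, 0.0783 and 58.3 in replicates 1 to 3. Its message was thus read in the male library and nearly absent in both female ones. Xist, Ddx3y, Kdm5d and Uty had no row. Klk1b22 was at 42.7, 24.2 and 0 and Oasl2, an interferon-induced gene, at 26.01, 0.761 and 14.3, so in each of these 1 library stood far from the other pair.

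At the bottom, 2 genes were at 0 in all 3 WT libraries, Timp1, an inhibitor of matrix proteases, and Sostdc1, a secreted antagonist of BMP and Wnt signalling. With them, 153 genes were at 0 in at least 1 WT library. Gpr83, a receptor, was at 0.0629, 0.0562 and 0 and Amigo2, an adhesion molecule, at 0.188, 0.395 and 0.284. Of the 869 genes with a mean under RPKM 3, 769 had passed the filter in fewer than 2 WT libraries, so most of them are listed because of the other genotype.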

How the data were processed

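Per the labels' protocols, polyadenylated RNA of sorted cells was prepared by a published method and an indexed Illumina kit. Bowtie and the mm9 build are named, per the submitters' processing notes, but no version, annotation or counting method is given in the sources used here. RPKM values per gene, with a gene length, were deposited by the authors in 6 columns, each from 1 library. Only the 3 WT columns were described. Where a symbol had several rows, the row with the highest mean was kept. RPKM times length gave whole reads within 0.05 for 99.6% to 100.0% of values, from which totals, reads and counting SDs were derived; 78.5% to 80.6% of these totals fell in listed rows. Symbols and gene kinds came from GENCODE M21 (9918 of 10772 rows matched, 540 rows without a symbol). Spreads used log2(RPKM + 1). No contrast was made, so no test was run. The spread measures were tested on simulated data, but the outcome is not given here and no support is drawn from it.

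Genes named are the 30 highest (the few that carry the description are given), the 4 highest of each list, members of the gate, lineage and sex-linked lists, the steadiest and least steady genes and those furthest out in a library. Others were chosen after their values were seen. The members and lists were chosen with earlier results of these data known. Python 3.11.15, numpy 2.4.6, pandas 2.3.3, scipy 1.17.1 and matplotlib 3.10.9 were used. Some listed genes are not reported here by name.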

Additional observations from a re-analysis of the deposited data

How the results depend on the processing

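Of 133 values recomputed under other settings, 103 were classed as unchanged and 30 as moved. The bound for this differed between results and was not always the spread between libraries. For shares within 2-fold it matched the Wilson interval, which covers counting only. Among values classed as unchanged, the moderate genes (5258) were 4138 with protein-coding genes only. The low genes (4200) were 3394 with that setting and 3239 with only rows above RPKM 3 in at least 2 WT libraries. The number of high genes (1248) was 631 with protein-coding genes only, which also put 33.0% of the summed RPKM in the 100 highest genes, against 27.2%. The number near 0 (49) was 140 by the median over libraries, 76 by a geometric mean, 88 to 122 with a library left out, and 0 with only rows above RPKM 3 in at least 2 WT libraries, by that filter's construction. The share of high genes within 2-fold (89.7%) was 91.5% after quantile normalization, 92.2% with libraries scaled to a fixed sum, 93.6% with replicate 1 centred by gene length and 91.6% to 99.3% with a library left out. For moderate genes (77.6%) it was 78.8% by a geometric mean, 74.9% with a fixed sum and 74.9% with a pseudocount of 0.1, 76.1% with thinned reads, 79.2% centred by length and 85.3% to 95.4% with a library left out. For low genes (56.0%) it was 54.4% with a fixed sum, 61.9% with the stricter filter, 44.3% with the pseudocount, 57.7% with protein-coding genes and 70.3% to 83.6% with a library left out. The median Spearman's rho (0.903) was 0.894 to 0.940 with a library left out, the highest without replicate 1. Agreement over 2 libraries is higher than over 3 by construction. The protein-coding and length settings were chosen after seeing the data. No paired analysis was possible because 1 group was described and no test was run. Depth limits the near-0 genes most, with a median of 25, 8 and 2 reads in replicates 1 to 3.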

Other observations

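Some abundant groups outside the lines above were also read. Of 12 genes of the S100, annexin and galectin families with a row 8 were high, with a median of RPKM 271. S100a10, the partner of annexin A2, was at 1029, 1473 and 1058 in replicates 1 to 3 and S100a4, a calcium-binding protein of motile cells, at 389.8, 1169 and 747. Lgals1, which encodes galectin 1, was at 485, 945 and 758. Replicate 1 was the lowest library for all 3. Lgals3 was at 255, 277 and 378 and Anxa2 at 276, 270.2 and 172, and replicate 3 was highest for the first and lowest for the second.

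The 20 heat shock and chaperonin genes with a row had a median of RPKM 199, and 14 were high. Hspa8, the constitutive HSP70, was at 1332, 1335 and 1099.8 and Hsp90ab1, the constitutive HSP90, at 1535, 1140.1 and 891. The endoplasmic reticulum member Hsp90b1 was at 272, 117 and 65.5, so replicate 1 lay far above both others there. Psmb8, a catalytic subunit of the immunoproteasome, was at 617, 822 and 688, the highest of the proteasome core genes, while Psmb9, its partner in that particle, was the lowest at 27.9, 44.2 and 37.8. H2-K1, an MHC class I heavy chain, was at 733, 802 and 865 and H2-D1 at 426, 452 and 559, both lowest in replicate 1, and near copies of these genes can share reads.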
